A study of Mus musculus with 6 samples.

Results

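Transcripts of 4 genes for subunits of the phagocyte NADPH oxidase were followed in mouse macrophages, namely Cybb and Cyba for the membrane subunits and Ncf1 and Ncf4 for cytosolic subunits. They were selected by gene name, and all 4 were found, each as a single entry, among 54232 genes of the table. The tested cells were SIRPa knockout (KO) bone marrow derived macrophages and their counterparts were wild-type (WT) macrophages, with 3 RNA-seq libraries per group. The labels give both groups as C57BL/6, 8 weeks old and untreated, with marrow cells cultured for 7 days in 30% L929 cell-conditioned medium, a source of colony-stimulating factor 1. The labels do not say which part of the gene was deleted, or whether replicates were separate mice or cultures, so p-values reflect no more than library-to-library spread, which may be technical.

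The phagocyte oxidase moves electrons from cytosolic NADPH across the phagosome or plasma membrane onto oxygen, which yields superoxide for killing of microbes and for signalling. Its membrane part is a heterodimer of gp91phox, the catalytic protein encoded by Cybb, and p22phox, the stabilizing partner encoded by Cyba. On activation, cytosolic subunits move to this heterodimer together with the GTPase Rac. They include p47phox, the organizer encoded by Ncf1, and p40phox, the phosphoinositide-binding subunit encoded by Ncf4, and the 4 genes do not cover the whole complex. SIRPa, a myeloid receptor that binds CD47 and signals inhibition, has been described in other work as a restraint on gp91phox expression, so the comparison of KO with WT macrophages bears on whether subunit transcripts differ without it.

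Cybb (ENSMUSG00000015340) lies on chromosome X of GRCm38 from 9435252 to 9487771 on the minus strand, and its longest annotated coding transcript has 13 exons. Cyba (ENSMUSG00000006519) lies on chromosome 8 from 122424776 to 122432930 on the minus strand, with 6 exons. Ncf1 (ENSMUSG00000015950) lies on chromosome 5 from 134220053 to 134229625 on the minus strand, with 10 exons, and Ncf4 (ENSMUSG00000071715) on chromosome 15 from 78244801 to 78262580 on the plus strand, with 10 exons. The opposite-strand gene Gtf2ird2 shares annotated exon sequence with Ncf1. It stood at 499 to 561 normalized counts in KO libraries and 459 to 573 in WT libraries, far below Ncf1, and although the library kit keeps strand, the strand setting used in counting is not stated by the labels.

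The start regions of 3 of the 4 genes, taken from RefSeq on GRCm38.p6, are shown as a description. A link between these regions and the subunit levels was not tested. Each runs from 250 bases before to 50 bases after the annotated start, 5′ to 3′ on the gene's strand. Capitals mark GAGGAA, the core bound by the myeloid factor PU.1, or GGGCGG, the GC box, on either strand.
Cybb, chrX:9469275-9469574, minus strand: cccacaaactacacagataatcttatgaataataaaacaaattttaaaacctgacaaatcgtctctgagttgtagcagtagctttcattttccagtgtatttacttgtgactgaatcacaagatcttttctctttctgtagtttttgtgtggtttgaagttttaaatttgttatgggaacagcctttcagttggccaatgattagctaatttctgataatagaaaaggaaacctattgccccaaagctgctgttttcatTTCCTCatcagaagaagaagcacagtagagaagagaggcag
Cyba, chr8:122432891-122433190, minus strand: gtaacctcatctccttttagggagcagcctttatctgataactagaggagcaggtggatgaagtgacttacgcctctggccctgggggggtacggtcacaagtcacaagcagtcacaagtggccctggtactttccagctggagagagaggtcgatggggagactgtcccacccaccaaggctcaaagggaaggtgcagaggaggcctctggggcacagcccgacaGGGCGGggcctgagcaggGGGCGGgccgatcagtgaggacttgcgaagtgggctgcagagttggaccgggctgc
Ncf1, chr5:134229576-134229875, minus strand: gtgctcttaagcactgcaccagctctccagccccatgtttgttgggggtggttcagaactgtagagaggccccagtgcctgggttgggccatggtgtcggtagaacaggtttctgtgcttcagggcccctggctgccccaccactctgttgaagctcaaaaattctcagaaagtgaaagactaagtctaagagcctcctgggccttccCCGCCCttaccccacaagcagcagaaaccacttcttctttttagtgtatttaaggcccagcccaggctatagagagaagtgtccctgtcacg

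The Cybb window was the most AT-rich of these, with a GC content of 35.3%, against 60.7% for Cyba, 54.0% for Ncf1 and a median of 52.7% over 32851 mouse windows of the same length. GAGGAA, found in 28.3% of all windows, occurred in the Cybb window on the reverse strand with its leftmost base at position 10 after the start, and was not in the Cyba or Ncf1 window. GGGCGG, found in 35.7% of all windows, occurred at positions -24 and -6 of Cyba and, on the reverse strand, at -42 of Ncf1. The Cybb window also held CCAAT, present in 37.4% of all windows, at position -56. An interferon-regulatory-factor element, searched as 2 copies of GAAA with 2 bases between them, is present in 3.44% of all windows and was matched at -168, -124 and -29 in Cybb and at -82 in Ncf1. TATAAA, in 13.6% of windows, was in none of the 3 windows. Both strands were searched, no matches overlapped each other, positions give the leftmost base, and a match is a description of the letters only. GENCODE also places a further Cybb start upstream of the RefSeq window.

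The targeted gene was read first as a check of the labels. Sirpa stood at 2102, 2112 and 2010.4 normalized counts in KO libraries, against 110498, 114095 and 94737 in WT libraries, so every library matched its label. Reads assigned to genes ran from 28653015 to 31401080 in KO libraries and from 34102444 to 67446846 in WT libraries. Marker lists fitted macrophages: the summed level of 10 macrophage genes was 926005 to 1065580 normalized counts in KO libraries and 1051942 to 1231105 in WT libraries. Most of that sum came from Lyz2 (619319 to 738635 in KO, 727406 to 951035 in WT), singled out after its values were seen. Because neutrophils also make the oxidase, 13 neutrophil genes were summed, and gave 3833 to 4146 in KO libraries and 4157 to 4294 in WT libraries, with Ly6g at 0 throughout. The KO range of this sum lay wholly below the WT range, though narrowly, with a highest KO sum of 4146 and a lowest WT sum of 4157. Of the 9 tested genes 0 passed and 0 separated the groups. Most of the sum came from Mmp8 (1851 to 2458 in KO, 2155 to 2197 in WT) and Csf3r (1242 to 1506 in KO, 1200.3 to 1757 in WT), singled out after their values were seen, while S100a8 ran from 139 to 161 in KO and from 97.1 to 228 in WT. Monocyte (7 genes), dendritic cell (8), eosinophil (6) and B cell (7) lists summed to 12498 to 12701, 2790 to 3880, 257 to 338 and 4964 to 5830 in KO libraries and to 12197 to 15004, 2023 to 5263, 228 to 391 and 6192 to 6718 in WT libraries. The B cell sum was also lower in every KO library than in any WT library, and no gene of these lists passed the test. Ear6, an eosinophil gene, was at 0 in all libraries. Their part in the subunit levels was not tested, and in bulk RNA fewer cells of a type and less RNA per cell cannot be told apart.

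All 4 oxidase transcripts were abundant, and none passed the test between KO and WT. Together they took 0.202% to 0.215% of assigned reads in KO libraries and 0.204% to 0.223% in WT libraries. Of the 4 members, 0 were called higher and 0 lower at an adjusted p under 0.05 (limma on log2(normalized count + 1), Benjamini-Hochberg over 13527 tested genes). The background was 0.00739% of tested genes called, which is Sirpa alone. Without adjustment 205 genes had p under 0.05, and no member was among them. Fold changes are KO over WT on the log2(normalized count + 1) scale, and normalized counts are gene read counts divided by a size factor per library. All 4 members were below WT in the mean, as were 51.8% of tested genes.

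Cybb encodes gp91phox, which carries the heme groups and the NADPH-binding domain of the oxidase. It stood at 36066, 34756 and 42319 normalized counts in KO libraries, against 36092, 43515 and 34987 in WT libraries. The groups overlapped fully, with a single high library in each, KO replicate 3 and WT replicate 2. The mean was 37713 ± 4042 in KO and 38198 ± 4638 in WT (SD, n = 3 each). The log2 fold change was -0.02 (SE 0.13, adjusted p = 0.9998 by limma). Its 95% interval ran from -0.31 to 0.27, so the KO to WT ratio of 0.988 had an interval of 0.809 to 1.21. The sign of so small a value turned with single libraries: leaving out KO replicate 1 gave 0.013, leaving out KO replicate 2 gave 0.039, and leaving out WT replicate 2 gave 0.080.

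Cyba encodes p22phox, which forms a stable heterodimer with gp91phox and provides the docking site for p47phox. Its normalized count was 13359, 16090.4 and 12974 in KO libraries, against 15763, 14019 and 17598 in WT libraries. The groups overlapped, with KO replicate 2 above WT replicates 1 and 2. The mean was 14141 ± 1699 in KO and 15793 ± 1790 in WT (SD, n = 3 each). The log2 fold change was -0.16 (SE 0.13, interval -0.44 to 0.12, adjusted p = 0.9998 by limma), a ratio of 0.895. It ranged with single libraries, from -0.26 without KO replicate 2 and -0.24 without WT replicate 2 to -0.10 without KO replicate 3 and -0.079 without WT replicate 3. Array weights, which let limma count some libraries more than others, gave -0.22 with an adjusted p of 0.0165. That fit gave KO replicate 1 and WT replicate 1 weights of 6.61 and 7.10 and the remaining libraries 0.258 to 0.543. It called 3498 of 13527 tested genes. Over the other 18 alternatives the adjusted p of Cyba was 0.857 or more.

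**Figure D1:**
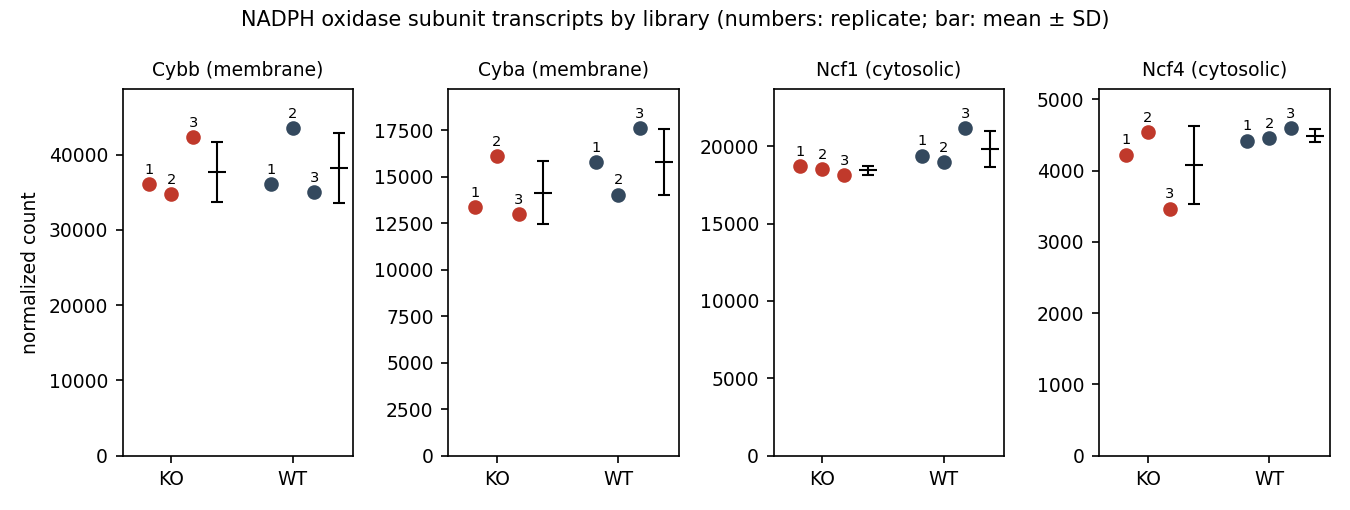
Normalized count (vertical axes, from 0) of each subunit transcript in the KO and WT libraries, with points numbered by replicate and the bar beside them giving the mean ± SD of 3 libraries. Cybb, Cyba and Ncf4 overlap between the groups, and the 3 KO values of Ncf1 (18127 to 18702) lie below the 3 WT values (18980.4 to 21165).

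Ncf1 encodes p47phox, which is phosphorylated on activation and brings the cytosolic subunits to the membrane. It was measured at 18702, 18528 and 18127 normalized counts in KO libraries, against 19386, 18980.4 and 21165 in WT libraries. Every KO library was below every WT library, the closest being KO replicate 1 and WT replicate 2. Groups separated in this direction for 2.71% of all tested genes, and in either direction for 4.66%. The mean was 18453 ± 295 in KO and 19844 ± 1162 in WT (SD, n = 3 each). The log2 fold change was -0.10 (SE 0.10, interval -0.33 to 0.12, adjusted p = 0.9998 by limma), a ratio of 0.931. The exact two-sided permutation test gave p = 0.1, the smallest that 3 against 3 libraries allow. Without WT replicate 3, the highest library, the log2 fold change was -0.06.

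Ncf4 encodes p40phox, whose PX domain binds phosphatidylinositol 3-phosphate on phagosomes. Its normalized count was 4224, 4538 and 3468 in KO libraries, against 4422, 4458 and 4595 in WT libraries. The groups overlapped, since KO replicate 2 lay between WT replicates 2 and 3, and KO replicate 3 was the lowest library. The mean was 4076 ± 550.2 in KO and 4491 ± 91.5 in WT (SD, n = 3 each). The log2 fold change was -0.15 (SE 0.12, interval -0.41 to 0.11, adjusted p = 0.9998 by limma), a ratio of 0.902. This value rested on KO replicate 3, and was -0.04 without it, whereas it was -0.23 without KO replicate 2. The exact two-sided permutation tests of Cybb, Cyba and Ncf4 gave p = 0.7, 0.3 and 0.3.

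**Figure D2:**
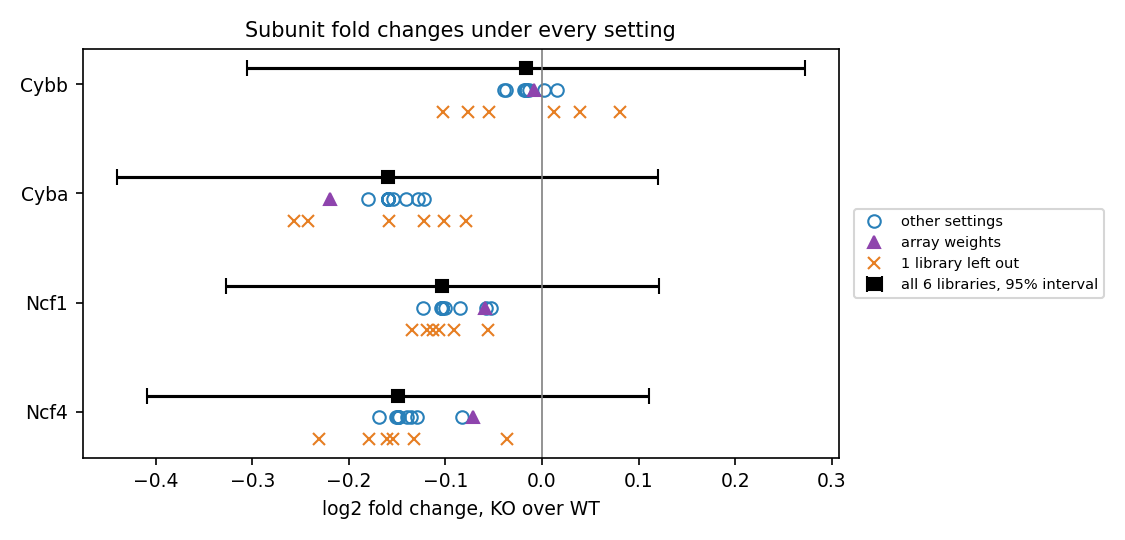
Log2 fold change of KO over WT (horizontal axis) for each subunit gene, with black squares and 95% intervals from all 6 libraries, open circles for other settings, triangles for array weights and crosses for fits that leave out 1 library. All 4 intervals include 0, the crosses of Cybb lie on both sides of 0, and all points of Cyba, Ncf1 and Ncf4 lie below 0.

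In the authors' deposited table the 4 genes likewise had adjusted p-values of 0.9999, with log2 fold changes of -0.02 for Cybb, -0.16 for Cyba, -0.10 for Ncf1 and -0.14 for Ncf4. Each library held 28828 to 65380 reads of Cybb and 2877 to 8587 of Ncf4, so that counting error was at most 0.589% for Cybb and 1.86% for Ncf4. Counting error was 0.551% to 0.968% for Cyba and 0.503% to 0.818% for Ncf1. The coefficient of variation between replicates was 10.7% in KO and 12.1% in WT for Cybb, and 12.0% in KO and 11.3% in WT for Cyba. For Ncf1 it was 1.6% in KO and 5.86% in WT, and for Ncf4 13.5% in KO and 2.04% in WT. The KO value of Ncf1 and the WT value of Ncf4 thus came closest to counting error, which reached 0.818% for Ncf1 in KO libraries and 1.57% for Ncf4 in WT libraries. Ncf1 had the smallest spread of the 4 with both groups pooled. Its within-group SD of 0.06 on the log2 scale was lower than that of all but 3.91% of the 10339 tested genes with a mean of at least 100, whereas Cybb (0.16), Cyba (0.17) and Ncf4 (0.14) stood near the median of 0.16.

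Per kilobase of annotated exon sequence the order of levels was Cyba, Cybb, Ncf1 and Ncf4 in every KO and every WT library. Cyba stood at 13610 ± 1635 normalized counts per kilobase in KO and 15200.4 ± 1723 in WT. Cybb stood at 6493 ± 696 in KO and 6577 ± 799 in WT, and Ncf1 at 5038 ± 80.5 in KO and 5417 ± 317 in WT. Ncf4 was the lowest, at 2018 ± 272 in KO and 2224 ± 45.3 in WT (SD, n = 3 each). By raw normalized count the order differs, because Cybb has 5808 exonic bases and Cyba 1039, and Cybb ranked between 66 and 97 among all genes while Cyba ranked between 259 and 401. The ranges of neighbours in the order did not overlap on this scale. Per kilobase of the longest coding transcript the same order held within each library, but Cybb (7314 to 9157) and Ncf1 (6290 to 7344) overlapped between libraries. The message lengths used by these cells were not measured, so the order holds for the annotated lengths.

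The membrane subunits did not move together from library to library. Cybb was highest in WT replicate 2 and KO replicate 3, at 0.20 and 0.16 above its 6-library mean on the log2 scale. Cyba stood at -0.09 and -0.20 there, and Ncf4 reached its lowest value of -0.30 in KO replicate 3. The ratio of Cybb to Cyba normalized counts was 2.70, 2.16 and 3.26 in KO libraries, against 2.29, 3.10 and 1.99 in WT libraries. This ratio differed 1.64-fold across libraries, with means of 2.71 ± 0.551 in KO and 2.46 ± 0.577 in WT (SD, n = 3 each), so the spread within each group exceeded the difference between them.

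Libraries also differed in how long and short genes, and genes of low and high GC content, were represented. This was examined after the subunit values had been seen. For each library the median log2 deviation of long genes (6390 exonic bases or more) minus that of short genes (2330 or fewer) was taken. It was 0.08, -0.05 and 0.15 for KO replicates 1 to 3, against -0.12, 0.17 and -0.24 for WT replicates 1 to 3. The 3 libraries with the highest Cybb to Cyba ratio were the 3 with positive values, KO replicates 1 and 3 and WT replicate 2. When a trend on length and GC content was removed from each library, the Cybb to Cyba ratio ran from 2.02 to 2.97, a 1.47-fold range. The parts of transcript length and of GC content in the spread, before or after this, were not tested. With the trend removed, the KO and WT ranges of Ncf1 overlapped (17705 to 19556 in KO and 18421 to 20886 in WT), and its log2 fold change was -0.05. The values of Cybb, Cyba and Ncf4 were then -0.04, -0.12 and -0.08, and none passed (adjusted p = 0.9991 by limma for each).

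**Figure D3:**
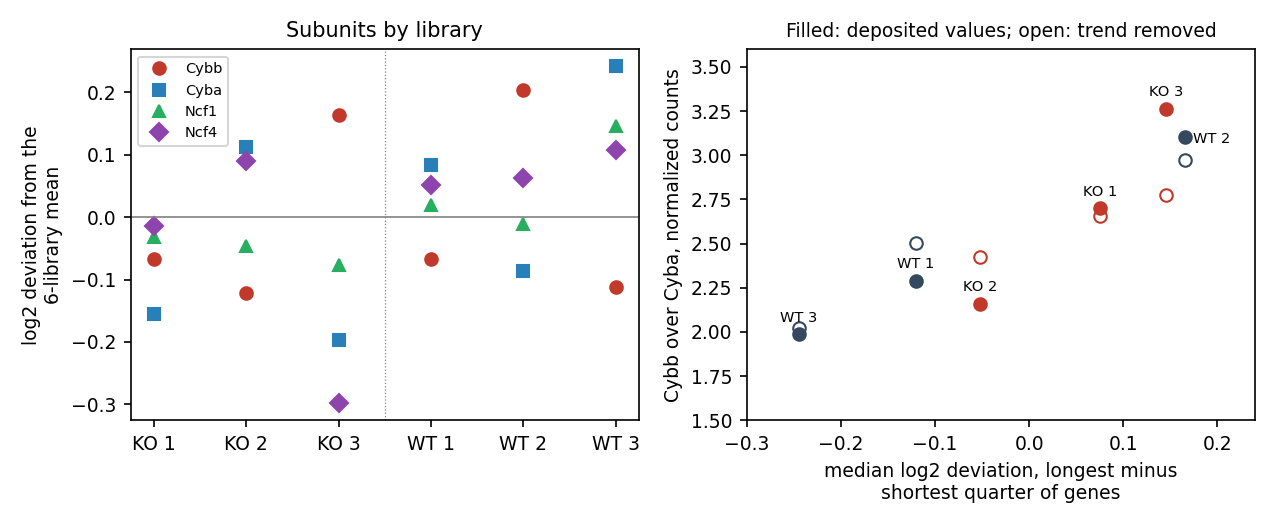
Left, log2 deviation of each subunit from its own 6-library mean in the KO and WT libraries. Right, the Cybb to Cyba ratio of normalized counts against the median log2 deviation of long minus short genes, with KO in red and WT in dark blue, filled for deposited values and open after a trend on length and GC content was removed. The deposited ratio ranged from 1.99 in WT replicate 3 to 3.26 in KO replicate 3, and the open points from 2.02 to 2.97.

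Across the 6 libraries, correlations were computed for all 6 pairs of subunits on log2 values. Cyba and Ncf4 gave Pearson's r = 0.73 (exact permutation p = 0.05, adjusted p = 0.15 over the 6 pairs) and Spearman's rho = 0.94 (exact permutation p = 0.0167, adjusted p = 0.1), and r = 0.77 without the 2 libraries farthest from the median of Cyba. Cyba and Ncf1 gave r = 0.78 (exact permutation p = 0.0389, adjusted p = 0.15) and rho = 0.66 (exact permutation p = 0.175, adjusted p = 0.35), but r = 0.15 without those 2 libraries, WT replicate 3 and KO replicate 3, on which the relation thus rested. Cybb and Cyba gave r = -0.69 (exact permutation p = 0.196, adjusted p = 0.273) and rho = -0.66 (exact permutation p = 0.175, adjusted p = 0.35), and r = -0.68 without KO replicate 3 and WT replicate 2. Ncf1 and Ncf4 gave r = 0.59 (exact permutation p = 0.190, adjusted p = 0.273) and rho = 0.60 (exact permutation p = 0.242, adjusted p = 0.357), but r = -0.0016 without WT replicate 3 and KO replicate 3. Cybb and Ncf4 gave r = -0.56 (exact permutation p = 0.228, adjusted p = 0.273) and rho = -0.54 (exact permutation p = 0.297, adjusted p = 0.357), and r = -0.82 without WT replicate 2 and KO replicate 3. Cybb and Ncf1 gave r = -0.44 (exact permutation p = 0.431, adjusted p = 0.431) and rho = -0.09 (exact permutation p = 0.919, adjusted p = 0.919), and r = -0.24 without the same libraries. No pair passed after adjustment. With the length and GC trend removed, r was 0.36 for Cyba and Ncf4, 0.50 for Cyba and Ncf1, -0.38 for Cybb and Cyba, -0.11 for Ncf1 and Ncf4, -0.00051 for Cybb and Ncf4, and -0.41 for Cybb and Ncf1.

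The genes whose levels over the 6 libraries were most like those of each subunit, among 9815 genes with a mean of at least 100, differed from subunit to subunit. For Cybb they were Crybg1 (r = 0.99), Naip6 (r = 0.98), a sensor gene of the inflammasome family, and Arl5b (r = 0.98). Cyba was closest to Cmtm7, Ogfod2 and Higd2a, with r of 0.99 or more. Ncf1 was closest to Auh, Ypel5 and Naaa (r = 0.99 each), and the genes close to Ncf4 included Fbxo46 (r = 0.996) and Yif1b (r = 0.996). None of the 4 subunits was among another's nearest 3. Naip6, for example, stood at 909.5, 913 and 1129 normalized counts in KO libraries, against 939.7, 1174 and 849 in WT libraries. It was high in KO replicate 3 and WT replicate 2, which its choice by likeness to Cybb implies. All these genes were picked for the highest r among 9815, so a high r follows from the choice. These are descriptions over 6 libraries and carry no test.

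Genes that assemble, switch on, supply or oppose the oxidase were examined as 9 lists. Of 73 tested members 0 rose and 0 fell, against 0.00739% of all tested genes called. In the mean 49 were below and 24 above WT, while 51.8% of all tested genes were below. Without adjustment 1 of them, Gpx1, had p under 0.05. Levels that follow are normalized counts, as mean ± SD over the 3 libraries of a group.

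Of 4 genes for assembly and charge balance 0 passed, and their median was -0.05 (log2), against -0.01 over all tested genes. Cybc1, the chaperone that the gp91phox and p22phox heterodimer needs in the endoplasmic reticulum, was 2236, 2508 and 1885 in KO libraries, against 2166, 2360 and 2507 in WT libraries. The groups overlapped and KO replicate 3 was lowest, as for Ncf4. Nrros, which limits the oxidase by directing gp91phox to degradation, was 7391 ± 1833 in KO and 7886 ± 982 in WT (a difference of -0.12). Hvcn1, the proton channel that offsets the charge the oxidase moves, was 4020.5 ± 454 in KO and 4070.4 ± 536 in WT (-0.02), and Clcn3, a chloride and proton exchanger, was 2485 ± 191 and 2303 ± 190.2 (0.11).

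Heme synthesis genes, which serve the heme of gp91phox, had 0 of 8 past the test and a median of -0.03. Alas1, the first enzyme of the route, was 3360 ± 188 in KO and 3460 ± 245 in WT. Fech, which inserts the iron, was 2059 ± 145 in KO and 2092 ± 59.9 in WT. Alad, the second enzyme, was 339 ± 41.2 in KO and 305 ± 19.9 in WT.

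The Rac switch had 0 of 10 past the test and a median of -0.01. Rac2, the GTPase of the myeloid oxidase, was 7023 ± 1058 in KO and 7695 ± 348 in WT (-0.14). Arhgdia and Arhgdib, which hold Rac in the cytosol, were 37533 ± 4265 and 25680 ± 3034 in KO and 39164 ± 1130.3 and 25734 ± 3458 in WT. Vav3, an exchange factor that loads Rac with GTP, was 2263 ± 353 in KO and 1944 ± 150.1 in WT (0.21, SE 0.13). Kinases that phosphorylate the subunits or act upstream had 0 of 11 past the test and a median of -0.0013. Akt1 was 10138 ± 1526 in KO and 10496 ± 99.6 in WT, and Mapk3 9636 ± 1390.2 and 10492 ± 452. Prkca, a low protein kinase C, was 54.0 ± 5.46 and 64.2 ± 2.80, with every KO library below every WT library (-0.25, SE 0.21), a separation found for 2.71% of all tested genes.

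Genes for the phosphoinositide that p40phox reads, and for the phospholipase that supplies arachidonate, had 0 of 6 past the test and a median of 0.07. Becn1 and Uvrag, parts of the class III kinase complex, were 4093 ± 71.7 and 3130.5 ± 199 in KO and 4159 ± 286 and 3191 ± 174 in WT. Pik3r4, its regulatory subunit, was 1754 ± 42.9 in KO and 1634 ± 223 in WT. Pla2g4a, the phospholipase, was 2729 ± 107 in KO and 2478 ± 136 in WT (0.14, SE 0.10).

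Transcription factors known to act on the subunit genes had 0 of 12 past the test and a median of -0.07. Spi1, which encodes PU.1, was 14740.2, 15976 and 12558 in KO libraries, against 17102, 14845 and 15769 in WT libraries, and the groups overlapped (-0.15, SE 0.12). Cux1, a repressor that binds the human CYBB promoter, was 15955 ± 402 in KO and 14951 ± 1188 in WT. Irf1, an interferon regulatory factor, was 1174 ± 149 in KO and 1370.0 ± 114 in WT (-0.23). Of 15 interferon-stimulated genes, examined because Cybb is interferon-responsive, 15 were below WT, against 51.8% of all tested genes, and 0 passed the test, with a median of -0.57. Without adjustment 7 of the 15 had p under 0.05, against 205 of 13527 over all tested genes. The list was chosen with earlier results of these data known, so these counts are a description and not independent support. Their median deviation was -0.80, 0.01 and -0.0028 for KO replicates 1 to 3, against -0.01, 0.20 and 0.55 for WT replicates 1 to 3. Ifit3 and Rsad2 were 1755 ± 552 and 1156 ± 319 in KO and 2765 ± 599 and 1732 ± 362 in WT, and Oasl2 and Rtp4 7593 ± 2368 and 3791 ± 963 in KO and 9203 ± 418 and 4845 ± 937 in WT. Cybb deviated by -0.07, -0.12 and 0.16 in KO replicates 1 to 3 and by -0.07, 0.20 and -0.11 in WT replicates 1 to 3. Its relation to the interferon-stimulated genes was not tested.

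Other NADPH oxidases were scarce. Of 9 genes 2 passed the filter on low values, 0 rose and 0 fell, and Nox4, Noxa1, Duox1 and Duoxa2 were at 0 in all 6 libraries. Nox1 stood at 27.5, 32.1 and 35.0 normalized counts in KO libraries, against 34.8, 40.8 and 40.1 in WT libraries, and its organizer Noxo1 at 25.2 ± 3.54 in KO and 26.0 ± 3.64 in WT. Cybb was thus the catalytic oxidase gene with by far the most reads in both groups.

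Enzymes that supply NADPH had 0 of 9 past the test, 8 below WT and a median of -0.12. Of all tested genes 51.8% were below WT. The median deviation of this list was 0.02, 0.10 and -0.24 for KO replicates 1 to 3. For WT replicates 1 to 3 it was 0.05, 0.0016 and 0.06, so KO replicate 3 was the low library. Pgd, an enzyme of the pentose phosphate pathway, was 21978 ± 701 in KO and 22464 ± 358 in WT, and Tkt 20001 ± 2885 and 21188 ± 132. Idh1, a cytosolic source of NADPH, was 8557, 8389.9 and 8277 in KO libraries, against 8723, 9207 and 9740 in WT libraries (-0.13, SE 0.10). Here too every KO library was below every WT library, a separation found for 2.71% of all tested genes. Taldo1 was 15875 ± 2670.1 in KO and 17664 ± 1552 in WT. Enzymes that remove superoxide and peroxide had 0 of 11 past the test, 10 below WT (against the same 51.8%) and a median of -0.10. Over KO replicates 1 to 3 the median deviation of this list was -0.02, 0.04 and -0.27. Over WT replicates 1 to 3 it was 0.04, -0.06 and 0.21, so KO replicate 3 was lowest and WT replicate 3 highest. Gpx1, which reduces peroxide with glutathione, was 14432, 16267 and 11802 in KO libraries, against 16844, 15793 and 24077 in WT libraries. The groups overlapped and WT replicate 3 was far above the rest (-0.40, SE 0.17, unadjusted p = 0.0402 by limma, not past the test after adjustment). Sod1, cytosolic superoxide dismutase, was 9930.4 ± 706 in KO and 11530 ± 2195 in WT (-0.20), Prdx1 33415 ± 3039 and 35797 ± 3509, and Cat, catalase, 18478 ± 2049 and 17291 ± 688 (0.09).

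**Figure D4:**
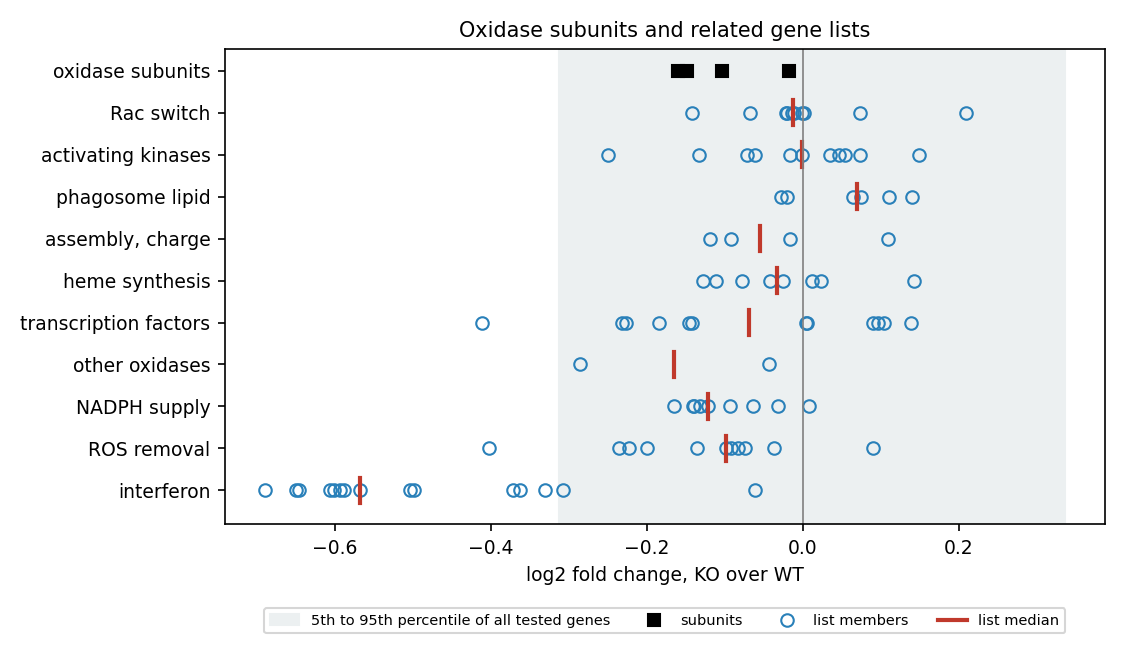
Log2 fold change of KO over WT (horizontal axis) for the 4 oxidase subunits (black squares), the tested members of each related list (open circles) and the list median (red bar), with the 5th to 95th percentile of all tested genes (-0.31 to 0.34) shaded. The subunits lie between -0.16 and -0.02 inside the shaded range, and most interferon-stimulated genes lie to the left of it.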

How the data were processed

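Stranded mRNA libraries of 3 SIRPa KO and 3 WT macrophage samples were grouped by their titles. Per the submitters' processing notes, the tools included STAR 2.5.1b and CASAVA 1.4, and also DESeq2 1.22.2 and featureCounts 1.6.0, with GRCm38. The design text in the labels instead names TopHat 2.0.10, with FastQC 0.10.1, so which aligner made the table is not known. No annotation release is stated in the labels.

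Values in the authors' 6 library columns are a signal: read counts divided by library size factors. All positive values (100%) fell on whole multiples of the library's step within 0.001 reads, so whole reads were recovered. The authors' table also gives, per the file headers, a log2 fold change with its error, a Wald statistic (a score), and raw and adjusted p-values.

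Genes reaching a normalized count of 10 in 3 or more libraries were fitted with limma 3.58.1 in R 4.3.3 (intensity trend, no block, two-sided, threshold 0.05) on log2(value + 1). DESeq2 1.42.0 and edgeR 4.0.16 served as alternatives on the recovered reads and each called 1 gene. Exon lengths and coordinates came from GENCODE M21 on GRCm38. The scripts were tested on simulated counts with 200 changed genes.

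The members and lists were chosen with earlier results of these data known. Named genes were the members, Sirpa, the 2 most abundant and the 2 with the smallest p of each list, and the 3 nearest patterns of each member, of which a few are not reported here. Rules for patterns left out predicted gene models and genes with a mean under 100. The trend on length and GC content was an alternative added after the data were seen, removed by natural splines over the 13514 tested genes with a length.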

Additional observations from a re-analysis of the deposited data

How the results depend on the processing

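No subunit was called under any of 18 of the 19 alternatives, which were the pseudocount (0.1 or 10), no filter or a minimum of 50, TMM, median or quantile rescaling, no intensity trend, a replicate block, edgeR, DESeq2, the length and GC trend, and leaving out each library. The exception was array weights, whose estimation stopped before it converged: 3498 of 13527 tested genes were called instead of 1 (1685 higher, 1813 lower). Among them were 1 of the 4 subunits (Cyba, log2 fold change -0.22, adjusted p = 0.0165 by limma) and 26 genes of the related lists instead of 0. The related lists here are the 9 lists with 73 tested genes and the interferon list with 15. Calls in this fit were thus not particular to the subunits or the lists. The cause of these calls was not tested. Cybb changed sign to 0.0020 with median rescaling and 0.015 with quantile normalization. Leaving out each library in turn gave -0.10 to 0.080 for Cybb, -0.26 to -0.08 for Cyba, -0.13 to -0.06 for Ncf1 and -0.23 to -0.04 for Ncf4, and 1 gene called each time. edgeR called 1 of 13311 genes and DESeq2 1 of 24603, with 207 and 217 below 0.05 before adjustment. Whether replicate numbers pair the samples was not settled. Deviations of same-numbered KO and WT libraries from their group means correlated at 0.01, 0.31 and 0.13. For differently numbered KO and WT libraries the values ran from -0.26 to 0.15. The replicate block cannot move a difference in this balanced design (Cybb -0.02, Cyba -0.16, Ncf1 -0.10, Ncf4 -0.15), only its error, and with it 1 gene and 0 subunits were called. Assigned reads differed between the groups, and no alternative matched depth.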
